A study of Mus musculus with 77 samples.

Results

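The cyclin and Cdk genes described here are 10 of the 46078 genes in the deposited count table: the D cyclins Ccnd1, Ccnd2 and Ccnd3, the E cyclins Ccne1 and Ccne2, the mitotic cyclins Ccna2 and Ccnb1, and the kinases Cdk1, Cdk2 and Cdk4. They were chosen by name, through their Ensembl identifiers, as the genes whose products form the kinases that can phosphorylate the endocrine transcription factor Ngn3 (gene Neurog3). All 10 passed the filter on detection at both time points. Their RNA was measured in mouse pancreatic ductal organoids of strain C57BL/6, which are three-dimensional cultures of duct cells. The organoids were infected with lentiviral vectors that switch on the transgene under tetracycline control. At 2 d of induction, GFP-positive cells carried GFP only, GFP with HA-tagged WT Ngn3, or GFP with HA-tagged 6S-A Ngn3, in which serines followed by proline were replaced by alanine. At 8 d, the groups were WT Ngn3, 6S-A Ngn3 and no-color cells from either kind of organoid. The labels list no-color cells, not GFP only cells, as the controls of 8 d, and these cells came from the same infected cultures. A legend of the study names GFP only as the control at both times, so which control it meant for the later time is uncertain, and all 8 d values here are against no-color cells. Each library was made from a pool of 50 sorted cells, with 3 biological replicates in each of the 7 groups, all at passage 2 except replicate 3 of every 8 d group, which was at passage 5.

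Cyclins are regulatory subunits that switch on the Cdk kinases, and most of them are made and destroyed once per cell cycle. D cyclins bind Cdk4 and pass growth signals to the retinoblastoma protein, E cyclins with Cdk2 start DNA replication, cyclin A acts in S phase and G2, and cyclin B with Cdk1 drives mitosis. Progenitor cells that leave the cycle to become endocrine cells lower this kinase activity. RNA levels do not measure kinase activity, which also depends on protein turnover, inhibitors and phosphorylation of the kinase itself.

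RefSeq promoter windows, from 250 bases before to 50 bases after the transcription start, matched 6 of the 10 genes (build GRCm38.p6). The windows of Cdk1, Ccnb1 and Ccne1 are shown because these genes fell in both 2 d comparisons, and that of Cdk4 because it did not pass the test in either. Capitals mark 3 motifs searched on both strands: the cell cycle element CHR (TTTGAA or TTCGAA), the E2F site (TTTGGCGC, TTTCGCGC or TTTCCCGC) and the NF-Y site (CCAAT). A match on the other strand is seen as its reverse complement.
Cdk1, chr10:69352863-69353162 (minus strand): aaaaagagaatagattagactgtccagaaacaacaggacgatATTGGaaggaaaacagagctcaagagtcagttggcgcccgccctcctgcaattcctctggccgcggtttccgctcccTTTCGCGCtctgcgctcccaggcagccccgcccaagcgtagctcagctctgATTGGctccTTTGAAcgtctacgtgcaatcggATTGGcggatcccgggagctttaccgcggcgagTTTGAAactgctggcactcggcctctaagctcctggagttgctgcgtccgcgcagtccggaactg
Ccnb1, chr13:100786437-100786736 (minus strand): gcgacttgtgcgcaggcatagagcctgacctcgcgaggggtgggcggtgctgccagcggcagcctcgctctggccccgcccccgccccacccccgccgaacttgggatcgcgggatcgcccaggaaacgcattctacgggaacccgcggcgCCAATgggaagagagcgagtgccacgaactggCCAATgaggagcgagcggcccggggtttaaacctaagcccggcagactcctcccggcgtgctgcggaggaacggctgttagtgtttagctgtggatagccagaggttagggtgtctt
Ccne1, chr7:38107441-38107740 (minus strand): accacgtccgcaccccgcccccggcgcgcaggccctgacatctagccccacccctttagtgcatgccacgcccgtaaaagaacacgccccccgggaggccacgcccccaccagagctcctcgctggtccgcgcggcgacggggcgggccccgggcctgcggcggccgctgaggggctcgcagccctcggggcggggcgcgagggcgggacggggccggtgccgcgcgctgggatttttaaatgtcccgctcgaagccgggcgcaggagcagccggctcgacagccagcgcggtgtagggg
Cdk4, chr10:127063285-127063584 (plus strand): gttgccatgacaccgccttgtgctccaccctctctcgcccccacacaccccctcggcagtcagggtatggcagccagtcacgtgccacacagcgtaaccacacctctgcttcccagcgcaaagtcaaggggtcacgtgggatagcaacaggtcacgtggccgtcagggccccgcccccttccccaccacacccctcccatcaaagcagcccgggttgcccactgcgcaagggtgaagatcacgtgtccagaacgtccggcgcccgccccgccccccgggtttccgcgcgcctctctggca

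The Cdk1 window held 2 CHR elements, 1 E2F site and 3 NF-Y sites, and none of these matches overlapped another. Ccnb1 had 2 NF-Y sites, and the windows of Ccne1 and Cdk4 had no match to any of the 3 motifs. Of the windows not shown, that of Cdk2 held 1 E2F site and 1 NF-Y site. Ccnd3 had 1 window with 1 NF-Y site and another with no match. Only the words listed were searched, so other forms of these motifs were not counted. Of all 32851 windows of this length, 19.2% held a CHR element, 1.84% an E2F site and 37.4% an NF-Y site. An E-box of the kind that proneural factors bind (CAGATG or CAGCTG) was present in 30.6% of all windows and, among the 6 matched genes, in that of Cdk2, which had 1. A match of letters is a description of these windows only.

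The libraries used held between 1501002 and 9202142 reads on genes, and 76 of the 77 deposited libraries passed the library limits. Summed over technical repeats, each replicate held 17757303 to 26627347 reads at 2 d and 2397470 to 17919627 at 8 d, the lowest being no-color (WT) replicate 3. Reads carry no molecular identifiers, so limits from counts cover counting error only. Levels of replicates are reads per 1000000 on genes (CPM) after TMM scaling over all 21 replicates. Levels of single pools were scaled separately over the 76 libraries, so the CPM of pools and of replicates are not on 1 scale. Nothing in the labels says how far the replicates were separate cultures, so p-values measure the spread between these samples. Neurog3 followed the labels: it had at most 2 reads in each GFP only replicate, 89.6 to 205.9 CPM with WT Ngn3 and 100.6 to 198.3 CPM with 6S-A Ngn3 at 2 d. At 8 d it had 6.86 to 46.1 CPM with WT Ngn3 and 9.85 to 15.4 CPM with 6S-A Ngn3, above the 0 to 0.989 CPM of the no-color cells. Transgene and endogenous Neurog3 reads cannot be told apart.

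In GFP only cells, levels per kb of annotated exon spanned a wide range. The length included bases shared with other genes, from 0% (Cdk1, Ccnb1 and Ccne1) to 23.4% (Ccnd1) of the exon bases. This was not corrected for. Cdk4 had 152 ± 21.5 CPM per kb (SD, n = 3), Ccnd2 122 ± 15.9 and Ccnd1 112 ± 26.1, and these 3 did not separate beyond their spread. Next came Cdk1 with 17.8 ± 2.4, Ccna2 with 12.1 ± 2.73 and Ccne1 with 9.48 ± 1.8 CPM per kb. The ranges of Ccna2 and Ccne1 overlapped. Cdk2 (6.12 ± 1.21) and Ccnd3 (6.06 ± 1.2) followed and did not separate from each other, nor did Ccnb1 (4.04 ± 0.542) and Ccne2 (2.94 ± 1.6) at the lower end. The 3 most abundant RNAs per length were thus those of a G1 kinase and its partners.

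At 2 d, Ccne1, Ccna2, Ccnb1 and Cdk1, which act in S phase and mitosis, were lower in cells with either form of Ngn3, and Cdk4 and Ccnd1 did not pass the test. Of the 10 genes, the quasi-likelihood test of edgeR called, at an adjusted p under 0.05 over 23844 genes, 4 lower with WT Ngn3 (Ccne1, Ccna2, Ccnb1 and Cdk1) and 0 higher. Among all genes tested, 5.23% were called lower and 6.56% higher, 11.8% in all. With 6S-A Ngn3, 6 of the 10 were called lower (the same 4 with Ccnd2 and Cdk2) and 0 higher, where 8.62% of all genes were called lower and 9.43% higher, 18.1% in all. The median log2 fold change of the 10 genes was -0.62 for WT and -0.98 for 6S-A Ngn3, against 0.01 and 0.02 over all genes tested. Both comparisons share the GFP only samples. With the replicate number as a block, which the reported fit leaves out, more genes were called. Of the 10, 6 (Ccnd3 and Cdk2 added) and 8 (Ccnd3 and Ccne2 added) were called lower and 0 higher. Over all 23844 genes, calls in either direction went from 2810 and 4305 to 4291 and 5912 with the block. With the first technical repeat of each replicate alone (1 pool of 6), all 4 WT calls and those of Ccnd2, Ccne1 and Ccnb1 with 6S-A Ngn3 were lost. There the log2 fold change of Ccnb1 was -0.57 and -0.81, and with WT Ngn3 that of Cdk1 was -0.55 and that of Ccna2 -1.01. The values of Ccne1 (-1.30 and -1.40) and of Ccnd2 with 6S-A Ngn3 (-0.51) stayed about as large as with all pools. In pools of cells, fewer cells in cycle and less RNA per cell cannot be told apart.

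**Figure D1:**
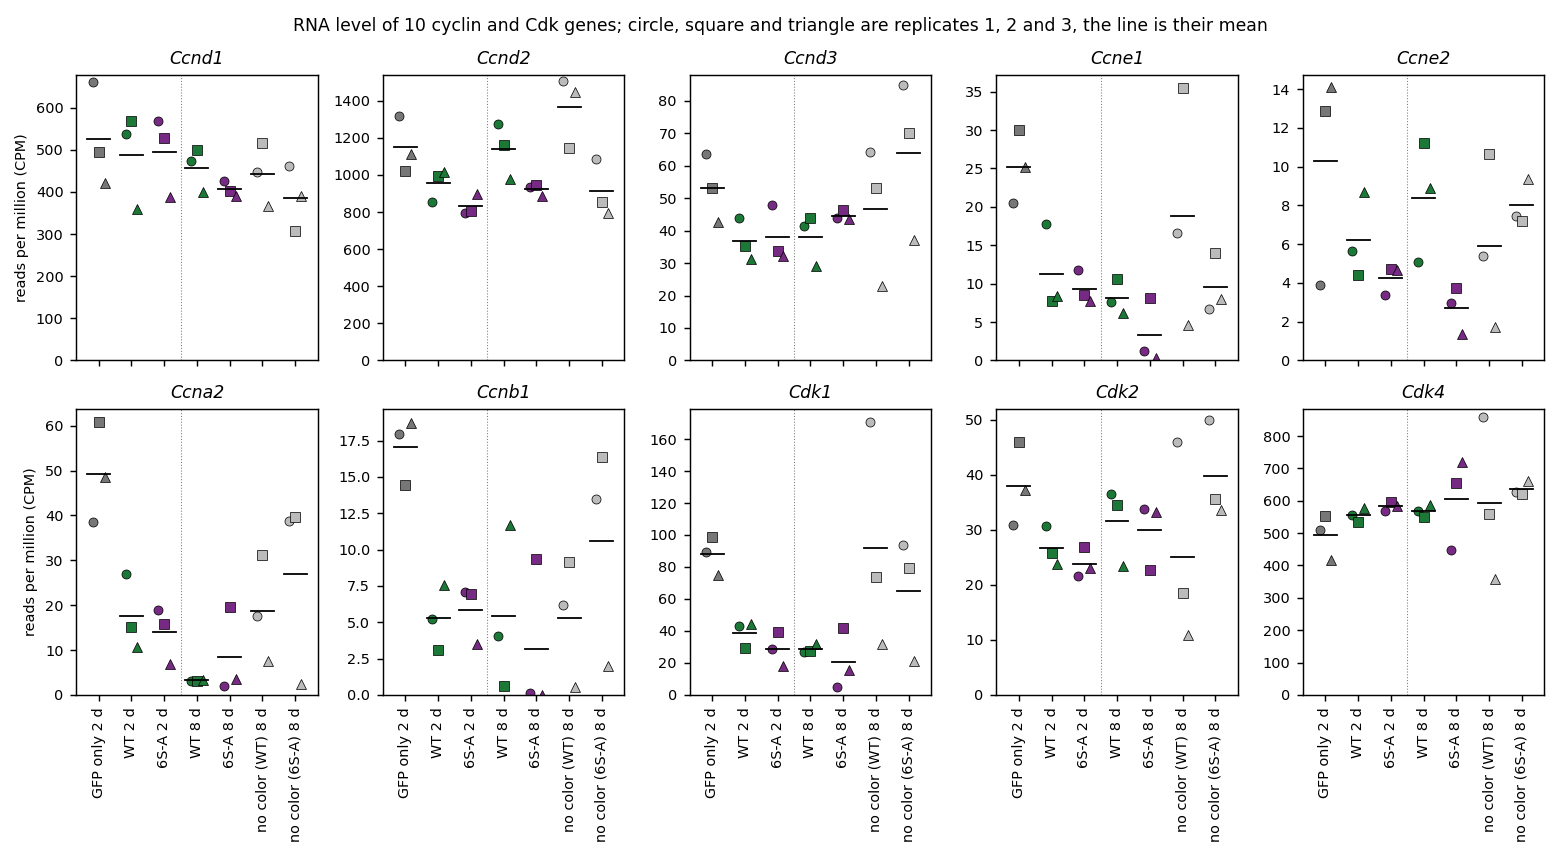
RNA level in CPM (vertical axis from 0) of the 10 genes in the 7 groups (horizontal axis), with circles, squares and triangles for replicates 1, 2 and 3 and a line at their mean. For Ccna2, Ccnb1 and Cdk1, all 3 GFP only replicates lie above all replicates of WT and 6S-A Ngn3 at 2 d, while Ccnd1 overlaps throughout.

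Among the D cyclins, which respond to mitogens, Ccnd1 (ENSMUSG00000070348, chr7:144929931-144939925, minus strand, GRCm38 as for all genes) had 661.1, 494.9 and 421.5 CPM in the GFP only replicates, 537.2, 568.4 and 358.6 CPM with WT Ngn3 and 568.7, 528.8 and 387.7 CPM with 6S-A Ngn3. The groups overlapped. The log2 fold change was -0.10 (95% interval -0.53 to 0.34) for WT and -0.09 (-0.52 to 0.35) for 6S-A Ngn3, with adjusted p-values of 0.861 and 0.849. Its exons share 23.4% of their bases with LTO1 on the other strand, and the library kit does not mark strand, so reads from that stretch cannot be assigned to either gene.

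Ccnd2 (ENSMUSG00000000184, chr6:127125162-127152193, minus strand), the D cyclin known from pancreatic beta cells, had 1315, 1023 and 1113 CPM in GFP only cells, 855.0, 993.9 and 1016 CPM with WT Ngn3 and 794.6, 803.8 and 898.1 CPM with 6S-A Ngn3. Every GFP only replicate was above every replicate of both other groups. Ccnd2 fell by 0.47 on the log2 scale with 6S-A Ngn3 (SE 0.12, adjusted p = 0.0136, edgeR). With WT Ngn3 the log2 fold change was -0.26 (SE 0.12) and did not pass (adjusted p = 0.214). The 6S-A call was lost without GFP only replicate 1, or without 6S-A replicate 1 or 2, with adjusted p-values of 0.0595 to 0.0601.

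Ccnd3 (ENSMUSG00000034165, chr17:47505051-47599691, plus strand) was lower per length than the other D cyclins. It had 63.7, 53.3 and 42.6 CPM in GFP only cells, 44.0, 35.3 and 31.3 CPM with WT Ngn3 and 47.9, 33.8 and 32.3 CPM with 6S-A Ngn3. Within each replicate number, both Ngn3 groups were below GFP only, although the groups overlapped. The log2 fold changes of -0.52 and -0.48 did not pass (adjusted p = 0.101 and 0.098), but both passed with the replicate number as a block (adjusted p = 0.00171 and 0.00174, edgeR) and with no filter on low counts (0.021 and 0.0268). The 6S-A value also passed without GFP only replicate 3 (0.0441) or 6S-A replicate 1 (0.0254). A pseudogene copy, Ccnd3-ps, is annotated, and its share of these reads was not tested.

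Ccne1 (ENSMUSG00000002068, chr7:38097984-38107534, minus strand) encodes the cyclin E that opens S phase with Cdk2. GFP only replicates had 20.5, 30.1 and 25.2 CPM, WT Ngn3 17.8, 7.80 and 8.38 CPM, and 6S-A Ngn3 11.7, 8.59 and 7.77 CPM. All GFP only replicates were higher than all others, and WT Ngn3 replicate 1 was the closest to them. Ccne1 was 2.21-fold lower with WT Ngn3 (log2 fold change -1.14, SE 0.30, adjusted p = 0.0225, edgeR) and 2.69-fold lower with 6S-A Ngn3 (-1.43, SE 0.30, adjusted p = 0.00402). The WT call was lost when GFP only replicate 2 or 3 or WT Ngn3 replicate 2 or 3 was left out, with adjusted p-values of 0.0569 to 0.0951.

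Its paralogue Ccne2 (ENSMUSG00000028212, chr4:11191351-11204779, plus strand) had the lowest mean per length of the 10 genes in GFP only cells, with a range that met that of Ccnb1. It had 3.88, 12.9 and 14.1 CPM in GFP only cells, 5.63, 4.40 and 8.67 CPM with WT Ngn3 and 3.39, 4.74 and 4.64 CPM with 6S-A Ngn3. GFP only replicate 1 lay within the Ngn3 groups. The log2 fold changes were -0.71 (SE 0.41, adjusted p = 0.351) and -1.28 (SE 0.42, adjusted p = 0.0519). Without GFP only replicate 1 both passed (adjusted p = 0.0362 and 0.00217, edgeR). The 6S-A value also passed without WT Ngn3 replicate 3 (0.0395), with the replicate block (0.0211), with DESeq2 (0.0164) and with no filter (0.0152). Ints8 on the other strand covers 17.4% of its exon bases.

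Ccna2 (ENSMUSG00000027715, chr3:36564865-36572150, minus strand), the cyclin A of dividing somatic cells, had 38.6, 60.8 and 48.6 CPM in GFP only cells, 27.1, 15.02 and 10.7 CPM with WT Ngn3 and 19.0, 15.9 and 6.88 CPM with 6S-A Ngn3. No replicate of either Ngn3 group reached the lowest GFP only replicate. Ccna2 was 2.78-fold lower with WT Ngn3 (log2 fold change -1.47, SE 0.40, adjusted p = 0.0401, edgeR) and 3.55-fold lower with 6S-A Ngn3 (-1.83, SE 0.41, adjusted p = 0.0105). The WT call was lost when any GFP only replicate, WT Ngn3 replicate 2 or 3 or 6S-A replicate 2 was left out (adjusted p = 0.0586 to 0.127), and with near-identical technical repeats counted once (0.0507). Both calls were lost with no filter on low counts (0.152 and 0.0614). Exosc9 on the other strand covers 12.5% of its exon bases.

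Ccnb1 (ENSMUSG00000041431, chr13:100778650-100786570, minus strand), whose product with Cdk1 forms the mitotic kinase, had 17.97, 14.5 and 18.7 CPM in GFP only cells. With WT Ngn3 it had 5.24, 3.09 and 7.59 CPM, and with 6S-A Ngn3 7.10, 6.92 and 3.53 CPM. The gap between GFP only and the Ngn3 replicates was wider than the range of the Ngn3 replicates. Ccnb1 was 3.19-fold lower with WT Ngn3 (log2 fold change -1.67, SE 0.33, adjusted p = 0.00402, edgeR) and 2.92-fold lower with 6S-A Ngn3 (-1.55, SE 0.33, adjusted p = 0.00425). No gene overlaps its exons, and a pseudogene copy, Ccnb1-ps, is annotated. The call held without each single replicate of these groups in turn.

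Cdk1 (ENSMUSG00000019942, chr10:69335146-69352938, minus strand), the kinase of mitosis, had 89.3, 98.9 and 75.3 CPM in GFP only cells, 43.0, 29.4 and 44.2 CPM with WT Ngn3 and 28.7, 39.4 and 17.9 CPM with 6S-A Ngn3. The lowest GFP only replicate was above the highest Ngn3 replicate by a wide margin. Cdk1 was 2.24-fold lower with WT Ngn3 (log2 fold change -1.16, SE 0.24, adjusted p = 0.00764, edgeR) and 3.07-fold lower with 6S-A Ngn3 (-1.62, SE 0.25, adjusted p = 0.000583). Leaving out each replicate in turn did not change either call.

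Cdk2 (ENSMUSG00000025358, chr10:128697939-128705031, minus strand), the partner of cyclins E and A, differed less. It had 31.0, 45.9 and 37.3 CPM in GFP only cells, 30.6, 25.8 and 23.7 CPM with WT Ngn3 and 21.6, 26.9 and 23.0 CPM with 6S-A Ngn3. GFP only replicate 1 was barely above WT Ngn3 replicate 1. Cdk2 was 1.60-fold lower with 6S-A Ngn3 (log2 fold change -0.68, SE 0.17, adjusted p = 0.0117, edgeR), a call lost without GFP only replicate 2 (0.068) or 6S-A replicate 1 (0.0511). With WT Ngn3 the value was -0.50 (SE 0.17, adjusted p = 0.0748), which passed with the replicate block (adjusted p = 0.0317), without GFP only replicate 1 (0.0346), with DESeq2 (0.0413) and with no filter (0.0377).

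Cdk4 (ENSMUSG00000006728, chr10:127063534-127067920, plus strand), the D cyclin partner, had 511.0, 553.2 and 416.9 CPM in GFP only cells, 557.3, 533.3 and 578.4 CPM with WT Ngn3 and 567.2, 597.5 and 584.8 CPM with 6S-A Ngn3. All 6S-A replicates were above all GFP only replicates, and WT Ngn3 overlapped them. The log2 fold changes of 0.18 (SE 0.11, adjusted p = 0.375) and 0.24 (SE 0.11, adjusted p = 0.168) did not pass. The intervals, -0.05 to 0.42 and 0.00 to 0.48, leave no room for a fall as large as that of Cdk1. Tspan31 on the other strand covers 19.7% of its exon bases.

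**Figure D2:**
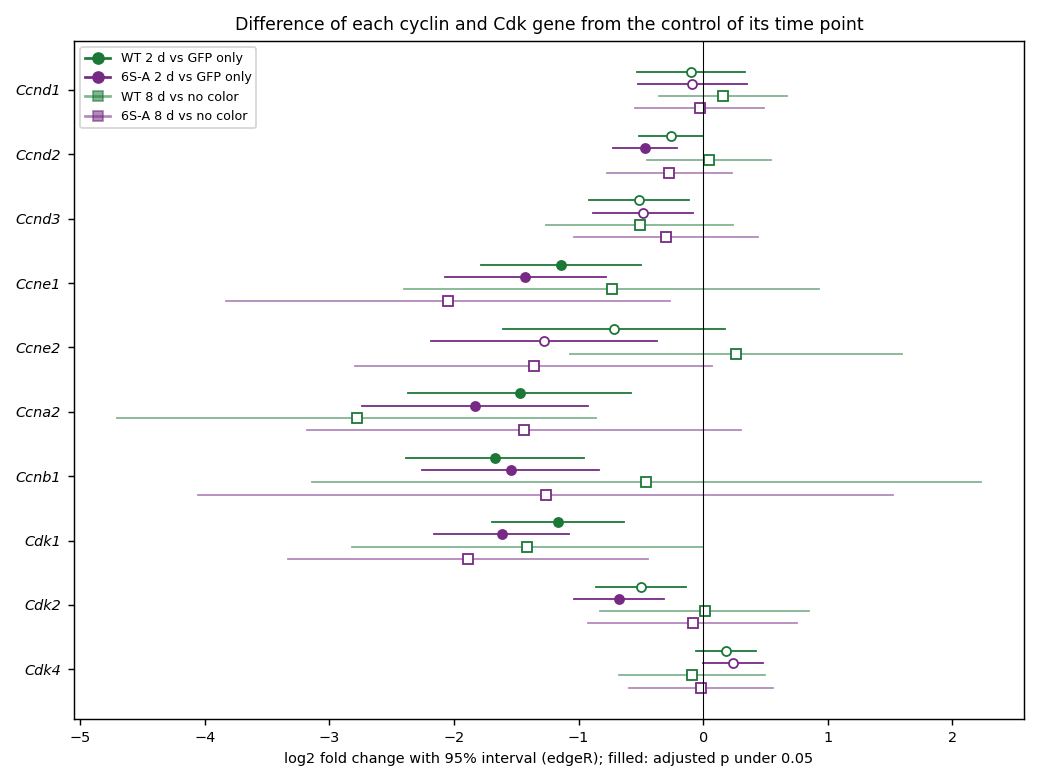
Log2 fold change (horizontal axis) of each of the 10 genes (vertical axis) from GFP only at 2 d (circles) and from no-color cells at 8 d (squares), with 95% intervals from edgeR, green for WT and purple for 6S-A Ngn3, filled where the adjusted p was under 0.05. The filled points are Ccne1, Ccna2, Ccnb1 and Cdk1 for both proteins and Ccnd2 and Cdk2 for 6S-A Ngn3, all at 2 d, and the 8 d intervals are wider.

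Whether loss of the phosphorylation sites changed these genes was asked by setting 6S-A against WT Ngn3. At 2 d, edgeR called 0 of the 10 genes, and 0 had an unadjusted p under 0.05. DESeq2 also called 0. Of all genes, 0.0126% were called (3 of 23844), and 1380 had an unadjusted p under 0.05. The widest differences were those of Ccne2 (log2 fold change -0.56, 95% interval -1.47 to 0.35) and Cdk1 (-0.45, -0.99 to 0.08). For Ccnd1, Ccnd3 and Cdk4 the intervals stayed within 0.45 of zero on the log2 scale. Ccnb1 was at 0.13 (-0.59 to 0.84).

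Single pools gave a different view of Ccnb1. Its median over 18 pools was 16.0 CPM in GFP only cells (range 5.69 to 34.9), 5.05 CPM with WT Ngn3 (0.554 to 16.7) and 0.808 CPM with 6S-A Ngn3 (0 to 33.2). With 6S-A Ngn3, 12 of 18 pools had 3 reads or fewer and 7 had 0. With WT Ngn3 2 of 18 pools had 3 reads or fewer, and with GFP only 0 of 18. By replicate, 4, 3 and 5 of 6 pools were this low with 6S-A Ngn3, and 0, 1 and 1 with WT Ngn3. The reads of each 6S-A replicate came mostly from 1 pool, which held 93.5%, 66.2% and 100% of them, against 28.0% to 45.8% with WT Ngn3. The summed levels, which did not pass the test between the proteins, therefore rested on few pools with 6S-A Ngn3. The count of low pools was chosen after the values were seen and is a description. An exact permutation test of the share of low pools per replicate, 6S-A against WT Ngn3, gave p = 0.1. That is the smallest value this test can give here, so it cannot decide. With near-identical technical repeats counted once, 10 of 16 and 2 of 16 pools were low.

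Ccna2 and Cdk1 also varied widely among pools. Ccna2 had a median over pools of 51.7 CPM with GFP only (9.10 to 80.8), 11.2 CPM with WT Ngn3 (2.32 to 52.7) and 6.96 CPM with 6S-A Ngn3 (0 to 74.8). Cdk1 had 88.7 (36.7 to 126.4), 34.5 (8.11 to 86.0) and 17.1 CPM (4.41 to 95.8). With either protein the highest pool lay near or above the GFP only median, while the medians lay far lower. Cdk4 varied little, with medians of 500.0, 545.1 and 597.3 CPM and a lowest pool of 331.3 CPM.

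**Figure D3:**
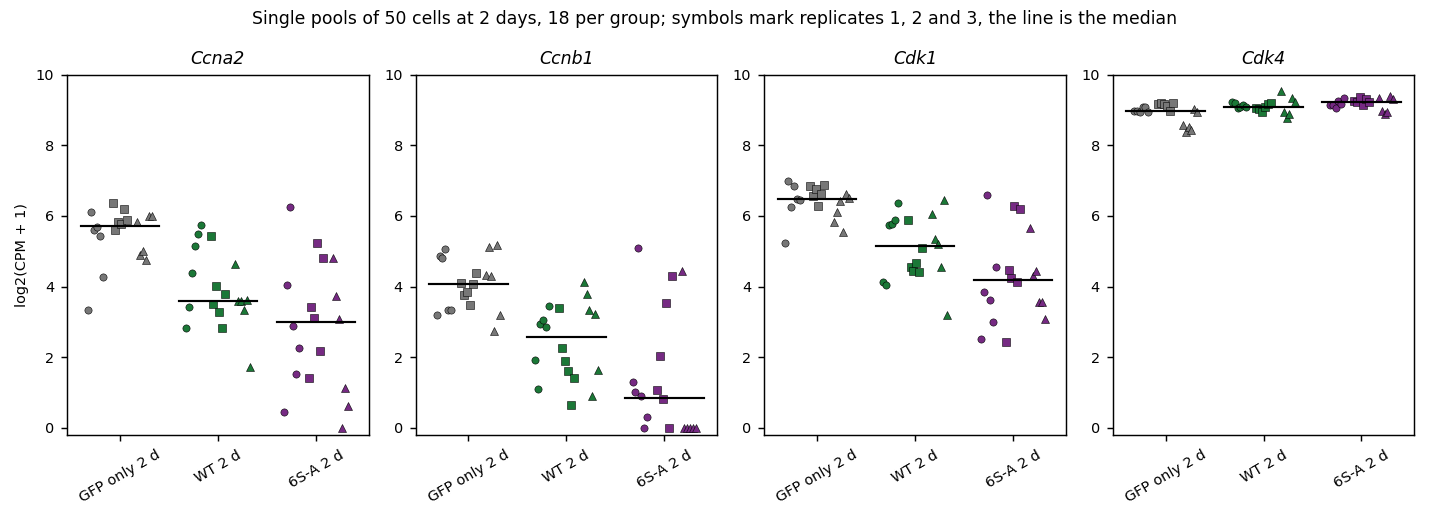
Level of Ccna2, Ccnb1, Cdk1 and Cdk4 in single pools of 50 cells at 2 d, as log2(CPM + 1) on the vertical axis, 18 pools for each of the 3 groups on the horizontal axis, with symbols for the replicates and a line at the median. Ccnb1 lies at or near 0 in most 6S-A pools, with a few pools as high as GFP only, whereas Cdk4 is flat.

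Across pools of 2 d, after each replicate's mean was removed and near-identical repeats were counted once (48 pools of 9 replicates), Ccna2 and Cdk1 varied together (Pearson's r of log2 CPM 0.86), as did Ccnb1 with Cdk1 (0.75) and Ccna2 with Ccnb1 (0.73). Ccne1 went with Ccne2 (0.49) and hardly with Ccnb1 (-0.09). Within GFP only pools alone the Ccna2 and Cdk1 value was 0.81 (16 pools), so the pairing was present without Ngn3. Cdk4 went with Ccnd3 (0.65), and Cdk4 also went with the depth of the pool (0.69), whereas Ccna2, Ccnb1 and Cdk1 did not (0.05, -0.02 and 0.16). Over the 32 pools with an Ngn3 transgene, the level of Neurog3 had values of -0.01, -0.07 and -0.05 with Ccna2, Ccnb1 and Cdk1, and 0.33 with Ccne2 and 0.49 with Cdk4. The values within WT and 6S-A pools (16 each) were 0.28 and -0.36 for Ccnb1, 0.77 and -0.21 for Ccne2 and 0.56 and 0.39 for Cdk4. Genes of 1 pool share its library and depth, and these values are descriptions.

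Over the 21 replicates, the genes most alike in pattern (Pearson's r of log2 CPM among 9874 genes with a mean of at least 10 CPM) differed between most members, with Cenpe shared by Ccna2 and Ccnb1. For Ccne1 they were Top2a (0.93), Mki67 (0.91) and Rrm2 (0.89), for Ccnb1 Knstrn (0.93), Cenpe (0.91) and Racgap1 (0.90), and for Cdk1 Spc25 (0.90), Birc5 (0.90) and Pbk (0.89). Ccna2 was most like Cenpe (0.86), Cenpf (0.86) and Tarsl2 (0.84). The nearest genes of Ccnd1 were Ltb (0.72), Cant1 (0.71) and Med1 (0.70), those of Ccnd2 Nfkbia (0.85), Nupr1 (0.80) and Rassf9 (0.78), and those of Ccnd3 Hyal2 (0.90), Gm10093 (0.89) and Riox2 (0.85). For Ccne2 they were Malt1 (0.80), Ncapg2 (0.78) and BC002059 (0.77), for Cdk2 Ddb2 (0.88), AI506816 (0.87) and Pcyt2 (0.86), and for Cdk4 Sec13 (0.90), Rnf181 (0.86) and 1110012L19Rik (0.86). The 21 points hold 7 groups, so group differences enter each value.

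The rest of the cell cycle machinery was counted in 8 lists, to be read against the 5.23% lower and 6.56% higher calls among all genes with WT Ngn3 and the 8.62% and 9.43% with 6S-A Ngn3. Of 12 proliferation markers, 8 fell in WT Ngn3 cells and 11 in 6S-A Ngn3 cells, with medians of -1.18 and -1.28 on the log2 scale. Mki67, a marker of cells in cycle, changed by -1.28 (SE 0.21, adjusted p = 0.00112) and -1.97 (SE 0.22, adjusted p = 2.3e-05, edgeR). Of the Cdk phosphatases, inhibitory kinases and Cks subunits, 4 and 5 of 7 fell and none rose. This list holds genes that act in opposite directions on Cdk1: Pkmyt1 and Wee1, which inhibit it, fell with both proteins (Pkmyt1 -1.20 and -1.47, Wee1 -0.72 and -1.01), as did the activating phosphatase Cdc25c (-0.99 and -1.69).

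Among Rb, E2F and MuvB genes, 5 of 19 fell with WT Ngn3 and none rose, and 6 fell and 1 rose with 6S-A Ngn3. The largest falls were those of E2f8, a repressor of the E2F family (-1.92 and -2.44), Foxm1, the activator of mitotic genes (-1.29 and -1.67) and, with 6S-A Ngn3, Rbl1 (-1.44), and 1 gene, Rb1, rose with 6S-A Ngn3 (0.65, SE 0.18, adjusted p = 0.0221, edgeR; named after its value was seen). Of the cyclin degradation genes, 3 of 10 fell with each protein, among them Cdc20 (-1.32 and -1.34) and Fbxo5 (-1.01 and -1.59), and Fbxw7, which marks cyclin E for destruction, rose with 6S-A Ngn3 (0.74, SE 0.20, adjusted p = 0.0175; also named after its value was seen). Of other cyclins, 14 of 15 were tested and 1 was called in each direction with each protein, a share near that of all genes. Ccnb2 fell (-1.24 and -1.86) and Ccnl2, a splicing cyclin, rose (0.47 with both). The medians were 0.17 and 0.20. With the replicate block, 4 other cyclins rose and 1 fell with each protein. Of the Rb, E2F and MuvB genes, 2 rose and 6 fell with WT Ngn3 and 4 rose and 8 fell with 6S-A Ngn3. The block also called more genes in all, 4291 and 5912 of 23844 in either direction.

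Of 13 other Cdks and Cdk5 activators, 3 rose with each protein, 1 and 2 fell, and 9 and 8 did not pass. The count that fell is near the 5.23% and 8.62% of all genes called lower, so it is no result about the list. Those that rose were Cdk5r2, a neuronal and islet activator of Cdk5, Cdk14 (1.36 and 1.38) and Cdk8, of the Mediator complex (1.12 and 1.42). Cdk5r2 rested on few reads (0, 0 and 2 in the GFP only replicates, 15, 12 and 18 with WT Ngn3 and 9, 11 and 18 with 6S-A Ngn3), so no fold is given for it. Cdk6, the second D cyclin kinase, fell with both (-0.35 and -0.61, adjusted p = 0.0427 and 0.00086, edgeR), and Cdk18 fell with 6S-A Ngn3 (-0.54; named after its value was seen). Cdk5 itself was at -0.09 and 0.08 (adjusted p = 0.782 and 0.734), and Cdk5r1 at 0.51 and 0.97 (adjusted p = 0.604 and 0.184). Of 8 other proline-directed kinases, a class to which MAP kinases and Gsk3 belong, none was called with either protein. With the replicate block 2 rose and 1 fell with 6S-A Ngn3, where 5912 of all 23844 genes were called in either direction.

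Among 7 Cdk inhibitors, none was called with WT Ngn3. The replicate block called 1 higher and 1 lower there, and 4291 of all 23844 genes in either direction. In 6S-A Ngn3 cells Cdkn1a (p21) rose by 0.70 (SE 0.17, adjusted p = 0.00862, edgeR), while Cdkn1b (p27) fell by 0.78 (SE 0.24, adjusted p = 0.0351) and Cdkn2c (p18) by 1.56 (SE 0.39, adjusted p = 0.0108). With WT Ngn3 the values were 0.46 for Cdkn1a (adjusted p = 0.0983), -0.51 for Cdkn1b (0.212) and -0.97 for Cdkn2c (0.126). Cdkn1c (p57) was at 0.36 and 2.05 with an SE of 0.91 for both. For these inhibitors no difference between 6S-A and WT Ngn3 was called, with differences of 0.24, -0.27, -0.59 and 1.69 for Cdkn1a, Cdkn1b, Cdkn2c and Cdkn1c and adjusted p-values of 0.953 to 1.

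**Figure D4:**
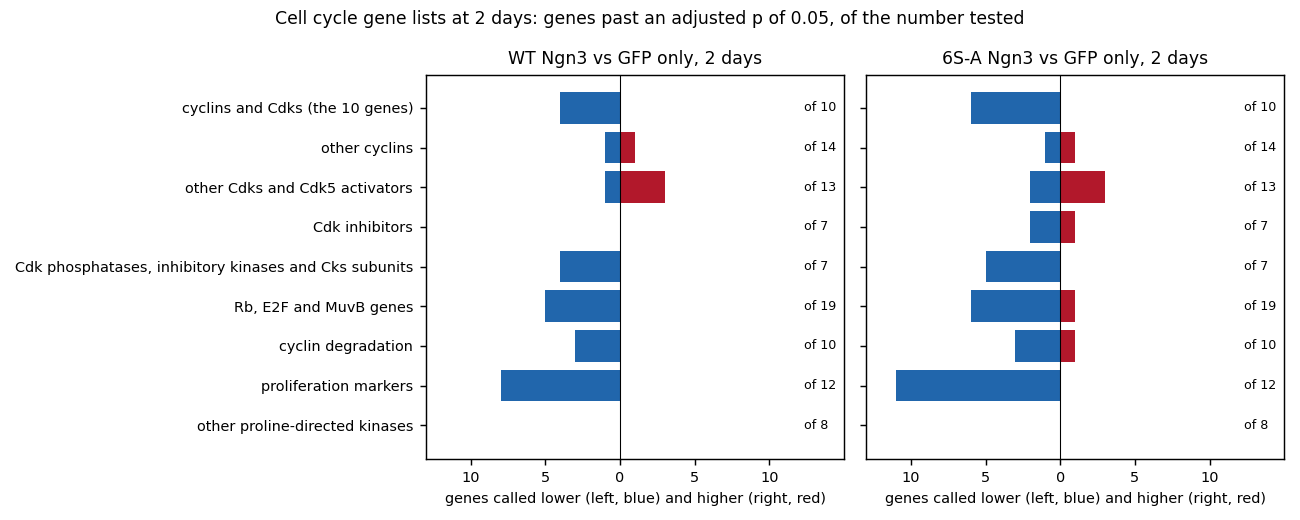
Number of genes called lower (blue, left) and higher (red, right) at an adjusted p under 0.05 in each list at 2 d, for WT Ngn3 (left panel) and 6S-A Ngn3 (right panel), with the number tested beside each bar. Proliferation markers have the longest bars (8 and 11 of 12 lower), and other Cdks and Cdk5 activators are the list with most genes higher (3 in each panel).

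The cell type markers moved with these genes. The summed level of 8 ductal markers was 12438.5 to 14543 CPM in GFP only cells, 7664 to 8141 with WT Ngn3 and 6515 to 7047 with 6S-A Ngn3, and 5 of 8 were called lower with each protein. The 8 endocrine markers summed to 0.416 to 1.81, 180.3 to 952.0 and 722.2 to 1064 CPM, with 6 and 8 called higher. Their part in the fall of the cyclins was not tested. Other cell types were scarce: at 2 d the acinar markers summed to at most 3.58 CPM, mesenchymal 2.41, immune 7.68 and endothelial 10.1 CPM, and Cpa1, Ptf1a, Amy2b, Pnlip, Col3a1 and Cd3e had 0 reads in every library. Of these 4 lists, the calls were 1 of 2 tested acinar genes lower with WT Ngn3 and 1 of 3 tested endothelial genes higher with 6S-A Ngn3.

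At 8 d, when Neurog3 levels were lower than at 2 d, no cyclin or Cdk was called. For WT Ngn3 against the mean of both no-color groups edgeR called 0 of the 10 (2 had an unadjusted p under 0.05, and DESeq2 called 1, Ccna2). Over all 19696 genes 0.914% were called, 0.173% lower and 0.741% higher, and 2070 had an unadjusted p under 0.05. For 6S-A Ngn3 it called 0 of the 10 (2 at an unadjusted p under 0.05, 0 by DESeq2), with 1.71% of all genes called, 0.340% lower and 1.37% higher, and 2378 at an unadjusted p under 0.05. The median log2 fold changes of the 10 were -0.27 and -0.78, against 0.01 and 0.03 over all genes. None of the 8 cell cycle lists had a called gene in these comparisons. With the replicate block 2 of 12 proliferation markers and 1 of 19 Rb, E2F and MuvB genes were called lower with 6S-A Ngn3. The block called 472 and 704 of all 19696 genes in either direction with WT and 6S-A Ngn3. Of the 8 ductal markers 1 and 2 were called lower and of the 8 endocrine markers 3 and 3 higher (2 and 4 lower and 7 and 7 higher with the block), with summed endocrine levels of 27.3 to 3364 CPM with WT Ngn3, 93.1 to 3682 CPM with 6S-A Ngn3 and 2.83 to 12.7 CPM in no-color cells.

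Ccna2 at 8 d had 3.15, 3.20 and 3.36 CPM with WT Ngn3, 1.93, 19.5 and 3.53 CPM with 6S-A Ngn3, 17.5, 31.1 and 7.48 CPM in no-color (WT) cells and 38.8, 39.6 and 2.33 CPM in no-color (6S-A) cells. All WT Ngn3 replicates were below all but 1 of the no-color replicates. The log2 fold change with WT Ngn3 was -2.78 (95% interval -4.71 to -0.86), with an adjusted p of 0.223 by edgeR, 0.00136 by edgeR with no filter on low counts and 0.025 by DESeq2. With 6S-A Ngn3 it was -1.44 (-3.18 to 0.31, adjusted p = 0.53).

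Cdk1 at 8 d had 26.7, 27.2 and 31.6 CPM with WT Ngn3, 4.66, 42.0 and 15.7 CPM with 6S-A Ngn3, 170.5, 73.9 and 31.7 CPM in no-color (WT) cells and 93.9, 79.5 and 21.01 CPM in no-color (6S-A) cells. In both no-color groups replicate 3, the passage 5 culture, was the lowest, and it lay among the Ngn3 replicates. The values were -1.41 (-2.82 to 0.00, adjusted p = 0.474) and -1.89 (-3.33 to -0.45, adjusted p = 0.233). Both passed with no filter on low counts (adjusted p = 0.0232 and 0.000371, edgeR), and the 6S-A value also with the first technical repeat only (0.0461). With passage 2 samples alone (n = 2 per group), 0 of the 10 genes were called in either comparison, and passage 5 held 1 replicate per group, which allows no test.

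Ccne1 at 8 d had 7.60, 10.6 and 6.13 CPM with WT Ngn3, 1.27, 8.19 and 0.307 CPM with 6S-A Ngn3, 16.5, 35.5 and 4.61 CPM in no-color (WT) cells and 6.67, 14.0 and 7.99 CPM in no-color (6S-A) cells. The 6S-A value was -2.05 (SE 0.84, adjusted p = 0.317), and with the replicate number as a block it was -2.54 and passed (SE 0.65, adjusted p = 0.0366, edgeR), the only such call among the 10 at 8 d. The WT value was -0.74 (SE 0.79). Ccnb1 had 2, 80 and 0 reads in the 6S-A replicates and 44, 2 and 59 in those of WT Ngn3. Its log2 fold changes were -0.45 (95% interval -3.14 to 2.23) with WT and -1.26 (-4.06 to 1.53) with 6S-A Ngn3, too wide to tell a fall from a rise. The 6S-A value passed with the first technical repeat only (-6.40, adjusted p = 0.0495, edgeR). With 6S-A Ngn3, 5 of 6 pools held 3 Ccnb1 reads or fewer.

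For the other 6 genes at 8 d, each Ngn3 group overlapped the no-color replicates. Between the proteins, all 6S-A replicates were below all WT Ngn3 replicates for Ccnd2 and Ccne2, although neither gene was called. The share of all genes separated in this way was not counted at either time, so this is a description only. Over these 6 genes, the log2 fold changes with WT Ngn3 ran from -0.51 (Ccnd3) to 0.26 (Ccne2). With 6S-A Ngn3 they ran from -1.36 (Ccne2, SE 0.68, adjusted p = 0.448, edgeR) to -0.02 (Cdk4). Ccnd2, for example, had 978 to 1276 CPM with WT Ngn3, 887 to 948 CPM with 6S-A Ngn3 and 796 to 1506 CPM over both no-color groups. Cdk4 spread from 357.5 to 858.6 CPM within the no-color (WT) group alone, wider than any difference between groups.

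Between 6S-A and WT Ngn3 at 8 d, 0 of the 10 genes were called by edgeR or DESeq2, and 1 (Ccne2, log2 fold change -1.62, 95% interval -3.22 to -0.03) had an unadjusted p under 0.05. Of all genes 0% were called, with 415 at an unadjusted p under 0.05. The effects at 8 d were also set against those at 2 d in a joint model of 24945 genes, although the controls were of different kinds (no-color and GFP only), so that time and kind of control cannot be told apart. For WT Ngn3 0 of the 10 genes differed (0% of all genes, 1319 at an unadjusted p under 0.05), and for 6S-A Ngn3 0 (0.0120% of all genes, 1423 at an unadjusted p under 0.05). DESeq2 called 0 of the 10 in both. The differences in log2 fold change for Cdk1 were -0.27 (95% interval -1.99 to 1.44) and -0.29 (-2.01 to 1.42), and for Ccna2 -1.33 (-3.58 to 0.93) and 0.37 (-1.78 to 2.52), so a loss or a gain of the 2 d effect by 8 d was not detectable at this depth and spread.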

How the data were processed

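Pools of 50 sorted cells had been sequenced as full-length Smart-seq2 libraries with Nextera XT, which does not mark strand. The authors aligned reads with GSNAP to mm10 (per the labels) and deposited raw counts of reads per gene from HTSeq 0.5.3p3, without normalization. Reads listed as not aligned (22.5%), on no gene (14.4%) or ambiguous (8.06%) and 92 spike-ins stayed out of library sizes. Here, libraries under 30% spike-in reads, over 1000000 gene reads and over 10000 genes were kept (76 of 77), technical repeats were summed per biological replicate, and genes detected in at least 5 libraries were tested with edgeR 4.0.16 in R 4.3.3 (TMM, robust quasi-likelihood test, Benjamini-Hochberg adjustment over all genes tested, threshold 0.05), all groups of a time point together. No-color controls were averaged over both groups. Of 46078 genes 45143 had a symbol. Exon overlaps are from GENCODE M21 on GRCm38.

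The genes, lists and tests were chosen with earlier results of these data known. All 10 members are named. Of each other list, at most the 3 called genes with the largest change were named, plus Cdk5, Cdk5r1, Cdk6, Cdkn1a, Cdkn1b, Cdkn1c, Wee1 and Mki67. Rb1, Fbxw7 and Cdk18 were named besides, after their values were seen. Alternatives were DESeq2 1.42.0, scran 1.30.0 and RLE scaling, other filters, all 77 libraries, first repeats only, own no-color group, passage 2 only, a replicate block and leaving out replicates. The 6 pairs of technical repeats 2 and 3 of replicates 2 and 3 at 2 d were the closest of all (chi-square of counts per gene at most 2.35, and at least 5.21 for the remaining 142 pairs). Counting each pair once was added after seeing the data.

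The labels share replicate numbers between groups. Deviations from the group means correlated at 0.119 to 0.556 between same-numbered replicates at 2 d (9 pairs) and at 0.117 to 0.670 at 8 d (18 pairs). Between replicates of different numbers they correlated at -0.510 to 0.005 at 2 d (18 pairs) and at -0.472 to 0.208 at 8 d (36 pairs). The 2 ranges overlapped at 8 d. The calls reported as main results come from fits without this pairing. The replicate block, which uses it, is given as an alternative. The labels do not say what the numbers stand for.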

Additional observations from a re-analysis of the deposited data

How the results depend on the processing

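Of 1830 alternative values of single genes, 25 lost a call, 24 gained one, 0 reversed and 1781 did none of these, among which 104 uncalled values changed sign. Members called with WT Ngn3 at 2 d (4 as reported) were 0 with the first technical repeat only and 2 to 5 when one replicate was left out, with 2 when GFP only replicate 2 or 3 or WT replicate 2 or 3 was missing. With 6S-A Ngn3 (6 as reported) the first repeat only gave 3. Against no-color cells at 8 d (0 as reported), WT Ngn3 gave 1 with DESeq2 and 2 with no filter on low counts (Ccna2 and Cdk1), and 6S-A Ngn3 gave 1 with no filter (Cdk1), 2 with the first repeat only (Ccnb1 and Cdk1) and 1 with the replicate block. At 2 d the replicate block gave 6 and 8 genes for WT and 6S-A Ngn3, and it changed no call among the 10 genes other than those given beside them. With near-identical repeats counted once the counts were 3 and 7. No member was called between the proteins or between the times under any setting run.

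Over all genes, calls at 2 d were 2810 and 4305 for WT and 6S-A Ngn3 as reported, 1201 and 1658 with the first repeat only, and 4291 and 5912 with the replicate block. At 8 d, 180 and 337 as reported became 551 and 822 with DESeq2, 724 and 1044 with no filter, 472 and 704 with the block and 49 and 115 with each protein's own no-color group, 111 for WT with the first repeat only, and 67 to 231 and 192 to 349 when one replicate was left out. Between the proteins at 2 d, 3 became 101 with DESeq2, 100 with no filter, 63 with the first repeat only, 147 with the block, 5 with near-identical repeats counted once and 0 to 5 without one replicate, and at 8 d 0 became 8 with no filter and 0 to 2 without one replicate. For the difference between times, 0 and 3 became 64 and 61 with DESeq2, 87 and 133 with no filter, 25 and 37 with the block, 2 and 7 with the first repeat only, 1 and 5 with passage 2 only, and 0 to 11 and 0 to 20 without one replicate, and for 6S-A Ngn3 5 with all 77 libraries and 1 with its own no-color group. The cause of these changes was not tested, except that the first repeat alone holds fewer cells and reads. In the lists at 2 d, the block moved the other counts to 6 and 6 lower for Cdk phosphatases, inhibitory kinases and Cks subunits, 1 higher and 4 lower with WT Ngn3 for cyclin degradation, 10 lower with 6S-A Ngn3 for proliferation markers, 2 lower with WT Ngn3 for other Cdks, 5 and 7 higher for endocrine markers 2 higher with 6S-A Ngn3 for endothelial markers and, between the proteins, 2 lower for ductal markers (0 as reported). It changed no other list count at 2 d than these and those given beside the lists. At 8 d, 1 to 3 pools were summed per replicate.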
